A study of Mus musculus with 8 samples.

Results

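The shared distal intergenic peaks of the autosomes are places of open chromatin, far from annotated genes, that were called in both *Arid1a* WT and *Arid1a* cKO mouse pachytene spermatocytes. They were selected from the cKO peak list by width under 5000 bp, location on chromosomes 1 to 19, an overlap of at least 1 bp with a WT peak, a midpoint outside every gene of GENCODE M21, and a distance of at least 10000 bp from every transcription start. Of 30244 cKO peaks, 28553 lay on autosomes, 28071 of these were under the width limit, 15792 of those shared a base with a WT peak, 4992 of those were intergenic, and 1435 met every condition and are called members below. Because the overlap of the lists chose the members, their presence in both lists is not a result. They are candidate enhancers by position alone, as no histone mark or transcript enters here and no reporter measurement chose them. Elements tested in mouse embryos are only compared with them below.

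Accessible DNA was read by ATAC-seq, in which a transposase inserts adapters into open chromatin, in quadruplicate (4 libraries per genotype) from pachytene spermatocytes purified by Sta-Put, a sedimentation of testis cells through a gradient at unit gravity. The cKO males carried floxed *Arid1a* alleles (*Arid1a* fl/fl) and the *Stra8-Cre* transgene, which is active from spermatogonia onward, while the WT males carried floxed alleles without Cre. Cells of several adult males were pooled, and the study describes spermatocytes that escaped excision, so ARID1A persisted in some of the cKO cells. Each genotype is represented by 1 list with 1 value per peak, taken from 1 unnamed library of that genotype, so no value below has a replicate error and differences between genotypes and between those libraries cannot be told apart.

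ARID1A is a DNA-binding subunit of BAF, a SWI/SNF complex that slides and evicts nucleosomes and opens enhancers in many somatic cells. Distal open sites are typically enhancers, insulators bound by CTCF, or the promoters and long terminal repeats of transposable elements. In pachytene spermatocytes, MYBL1 (A-MYB) and RFX2 drive meiotic and postmeiotic gene programs from promoters and distal sites.

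Sequence was not used to choose the members, and 470 of the 1435 consisted largely of repeated sequence. A peak was of unique sequence when at least 50% of its 50-mers, taken every 25 bp, occurred once in the chromosomes, which 965 members met. To group members by shared sequence, the 24-mer present in most members, at any place in the peak, was taken. Its holders were set aside, and the search was repeated until fewer than 20 members shared one. This gave 8 families with 379 members, 313 of them of repeated sequence, while 157 repeated members were in no family. The search was added after the data were seen and used sequence only. The 24-mers, read from GRCm38 with the alphabetically first strand printed, are shown because the families differed in their ratio of cKO to WT enrichment. Capitals mark an octamer, ATGCAAAT, the classic site of POU factors.
Family 1: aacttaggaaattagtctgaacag
Family 2: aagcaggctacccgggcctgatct
Family 3: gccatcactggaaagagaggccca
Family 4: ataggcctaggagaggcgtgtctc
Family 5: agagcccctgcctagaatccccca
Family 6: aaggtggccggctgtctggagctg
Family 7: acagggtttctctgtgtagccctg
Family 8: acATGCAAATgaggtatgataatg

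Family 1 held 111 members on 19 chromosomes, and its 24-mer occurred 6824 times in chromosomes 1 to 19, X and Y. Family 2 held 89 members (4978 copies), family 3 held 51 (35449 copies), family 4 held 39 (1177 copies), family 5 held 24 (1745 copies), family 6 held 23 (842 copies), and families 7 and 8 held 21 each (35237 and 1403 copies). The 24-mer of family 1 was found in 331 of 30244 cKO and 268 of 19309 WT peaks of any position. That of family 4 was found in 284 cKO and 81 WT peaks and that of family 8 in 318 and 95. The cKO list is the longer, so these counts are not shares and a higher count alone does not mean a higher share. Not all holders were of repeated sequence, as 20 of 39 members of family 4, 17 of 24 of family 5 and all 21 of family 7 were of unique sequence. No repeat annotation was used, so the families are not named as elements.

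The sequence at the strongest members is shown next. The peak at chr1:189193954-189195165, 20657 bp from the nearest coding start (*Kcnk2*, a potassium channel), had the highest cKO fold enrichment of all members, 62.5 against 35.5 in WT. In its 300 bp summit window (chr1:189194609-189194908, GRCm38, forward strand), capitals mark the most frequent 12-mer, which occurred 5 times, and the window matched itself at 76.7% of bases when shifted by 60 bp.
Kcnk2 peak: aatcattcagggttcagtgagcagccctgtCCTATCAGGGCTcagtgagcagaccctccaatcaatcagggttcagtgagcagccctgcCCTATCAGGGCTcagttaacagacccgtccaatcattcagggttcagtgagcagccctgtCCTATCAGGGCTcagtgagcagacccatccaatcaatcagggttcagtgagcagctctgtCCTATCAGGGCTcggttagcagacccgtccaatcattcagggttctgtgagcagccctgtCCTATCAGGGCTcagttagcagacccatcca

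A different kind of strong member lay at chr4:8646811-8648854, 42573 bp from the nearest start of *Chd7*, which encodes a chromatin remodeler. Its fold enrichment was 32.2 in cKO and 17.3 in WT, and it resembled a CpG island, with 46 CpG dinucleotides (capitals) and a GC content of 76.0% in the summit window chr4:8647279-8647578 (forward strand).
Chd7 peak: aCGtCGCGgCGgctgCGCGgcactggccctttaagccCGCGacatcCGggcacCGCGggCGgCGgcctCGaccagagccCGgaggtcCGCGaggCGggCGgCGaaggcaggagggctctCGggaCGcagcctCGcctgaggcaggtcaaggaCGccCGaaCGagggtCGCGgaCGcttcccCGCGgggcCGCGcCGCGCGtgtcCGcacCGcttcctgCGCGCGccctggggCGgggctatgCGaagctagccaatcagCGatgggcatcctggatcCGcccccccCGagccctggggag

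Members were enriched to a median of 5.24 times the background in the cKO list (95% order-statistic interval, 5.07 to 5.4, n = 1435) and 4.13 times in the WT list (4.13 to 4.31). The fold enrichment, as deposited by the authors, divides the fragments covering the summit plus 1 by the average background plus 1. Weak peaks rest on few fragments, as the lowest summits held 13 (WT) and 14 (cKO), over backgrounds of 4.33 and 5.11 fragments per base. The quartiles of the members in the cKO list were 3.93 and 7.20. Members were weaker than shared promoter peaks, whose medians were 12.9 and 8.25, while the 1044 shared intragenic peaks at least 10000 bp from every start had the medians of the members, 5.24 and 4.13. The 2234 gained distal intergenic peaks, which met the same position rule but shared no base with a WT peak, had a median of 3.6. These levels are tied to the overlap that chose the members and were not tested.

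The width of members was 1039 bp at the median in cKO (998 to 1075) and 619 bp in WT (591 to 653), and 1192 of 1435 cKO peaks (83.1%) were wider than the WT peak beneath them, beside 91.9% of all shared autosomal peaks. By sequence, the share was 93% of unique and 62.8% of repeated members, beside 93.8% and 72.1% of all shared autosomal peaks of unique and repeated sequence. Most members (1402) lay over 1 WT peak and the other 33 over 2. On the cKO list 93.2% of members (95% Wilson interval, 91.7 to 94.4) were written on 3 or more rows, as a list repeats a peak for overlaps with other replicates, and 59.9% (57.4 to 62.4) of their WT peaks were. The same shares were 97.7% and 79.6% over all shared autosomal peaks, and 95.4% and 59.0% at shared intragenic peaks. Seen from the WT list, 1567 of 1755 distal intergenic peaks (89.3%, 87.8 to 90.6) overlapped a cKO peak, beside 89.0% of WT intragenic peaks away from starts and 98.8% of WT promoter peaks. Over all autosomal WT peaks under 5000 bp the share was 95.2% (17338 of 18204). The 188 WT distal peaks without a cKO peak had a median fold enrichment of 3.38, below the 4.13 of the overlapping ones. In the cKO list, 1435 of 3669 distal intergenic peaks (39.1%) shared a base with WT, against 56.3% of all autosomal peaks under 5000 bp, a contrast that the rule itself used.

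Members of unique sequence were more enriched in cKO than in WT, and members of repeated sequence had nearly equal medians in both. For the 965 unique members the medians were 5.56 in cKO and 4.13 in WT, with a median log2 ratio of cKO to WT of 0.45 (0.42 to 0.48). For the 470 repeated members they were 4.42 and 4.31, with a log2 ratio of 0.03 (-0.02 to 0.08). Over all 15792 shared autosomal peaks the log2 ratio was 0.55, so an equal value in both lists was low against the rest of the list. The same split was seen at shared intragenic peaks, with log2 ratios of 0.42 for the 738 of unique and 0.05 for the 306 of repeated sequence. It was small at shared promoter peaks, with 0.63 for the 8055 of unique and 0.54 (0.46 to 0.60) for the 88 of repeated sequence. Over all shared autosomal peaks the log2 ratio was 0.57 for the 14410 of unique and 0.10 for the 1382 of repeated sequence. The cKO value was below the WT value at 332 members (23.1%, 21 to 25.4), beside 9.22% of all shared autosomal peaks. Unique sequence made up 67.2% of members but 91.2% of all shared autosomal peaks. By sequence, 114 of the 965 unique members (11.8%) were lower in cKO, beside 6.35% of all shared autosomal peaks of unique sequence. Among the 470 repeated members 218 were lower (46.4%), beside 39.1% of all shared autosomal peaks of repeated sequence. A ratio was seen only where a peak was called in both lists, which bounds it at weak peaks.

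**Figure D1:**
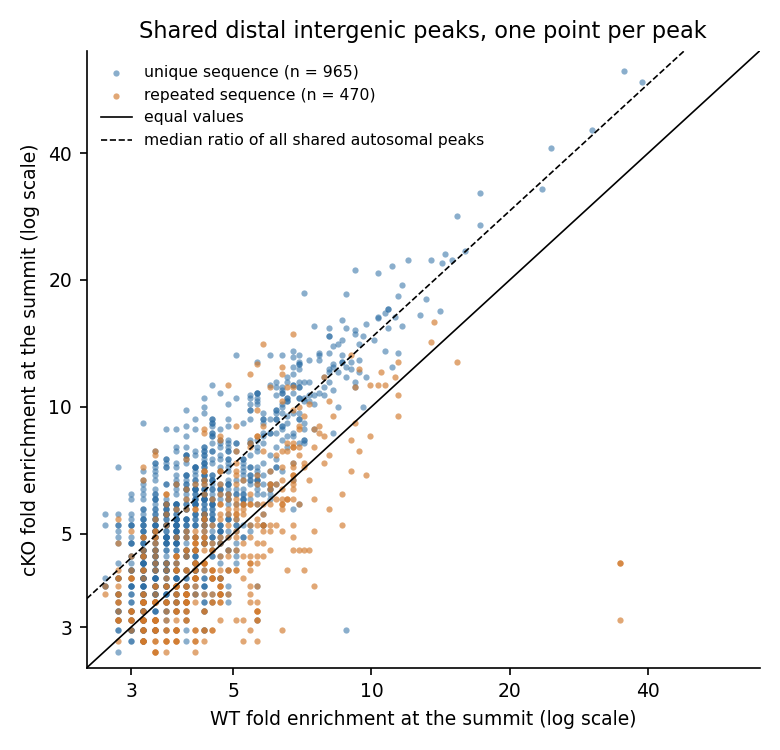
Fold enrichment at the summit in WT (x axis, log scale) and cKO (y axis, log scale) for the 1435 members, with unique sequence in blue, repeated sequence in orange, a solid line at equal values and a dashed line at the median ratio of all shared autosomal peaks. Of the 965 blue points 114 lie below the solid line, and of the 470 orange points 218 do.

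The median ratio was higher at the stronger WT peaks among unique members, as it was over all shared autosomal peaks (0.36, 0.45, 0.58 and 0.65 in the 4 ranges of WT enrichment that follow). At a WT fold enrichment of up to 4, the median log2 ratio was 0.42 at 454 unique and 0.05 at 180 repeated members. From 4 to 6 it was 0.39 and -0.02, and from 6 to 8 it was 0.58 and 0.06. Above 8 it was 0.60 at 72 unique members (0.55 to 0.65) and -0.07 at 29 repeated members (-0.27 to 0.16). These ranges were added after the data were seen.

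Past a threshold of 2 times, after division by the median ratio of all shared autosomal peaks, no member was higher in cKO and 50 were lower. The background over all shared autosomal peaks was 0.0127% higher and 1.09% lower, against 0 and 3.48% of members (2.65 to 4.56). Of the 50, 43 were of repeated sequence and 19 belonged to families 1 and 2. The 43 were 9.15% of repeated members, beside 6.51% of all shared autosomal peaks of repeated sequence. The 7 of unique sequence were 0.73% of unique members, beside 0.57% of all shared autosomal peaks of unique sequence. Without the division, 6 members were lower and 62 higher by 2 times, so the direction of these calls rested on the scaling. Reads that match several copies of a repeat can be placed at any of them, and no mapping-quality filter was stated. The part of read placement in these ratios was not tested.

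The families differed in ratio. In families 1, 2, 3 and 6 the medians were nearly equal in the lists, 4.42 in cKO and 4.69 in WT for family 1, 4.09 and 4.13 for family 2, 3.76 and 3.75 for family 3, and 4.25 and 4.50 for family 6. Their median log2 ratios ran from -0.11 to -0.04, and 58 of 111, 49 of 89, 28 of 51 and 16 of 23 members, respectively, were lower in cKO. Over all shared autosomal peaks, 39.1% of those of repeated sequence and 6.35% of those of unique sequence were lower. In families 4 and 8 every member was higher in cKO, with 20 of 39 and 4 of 21 members of unique sequence. Family 4 had medians of 8.18 in cKO and 5.07 in WT (log2 ratio of 0.74, 0.60 to 0.88), and family 8, which carries the octamer, 7.85 and 5.63 (0.60, 0.43 to 1.05). Families 5 and 7 lay between these, with log2 ratios of 0.49 and 0.39. Unique 50-mers made up a median of 0% of the peaks of family 1 but 51.7% of those of family 4 and 93.6% of those of family 7, while family 8, with 15% unique, also had a high ratio.

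**Figure D2:**
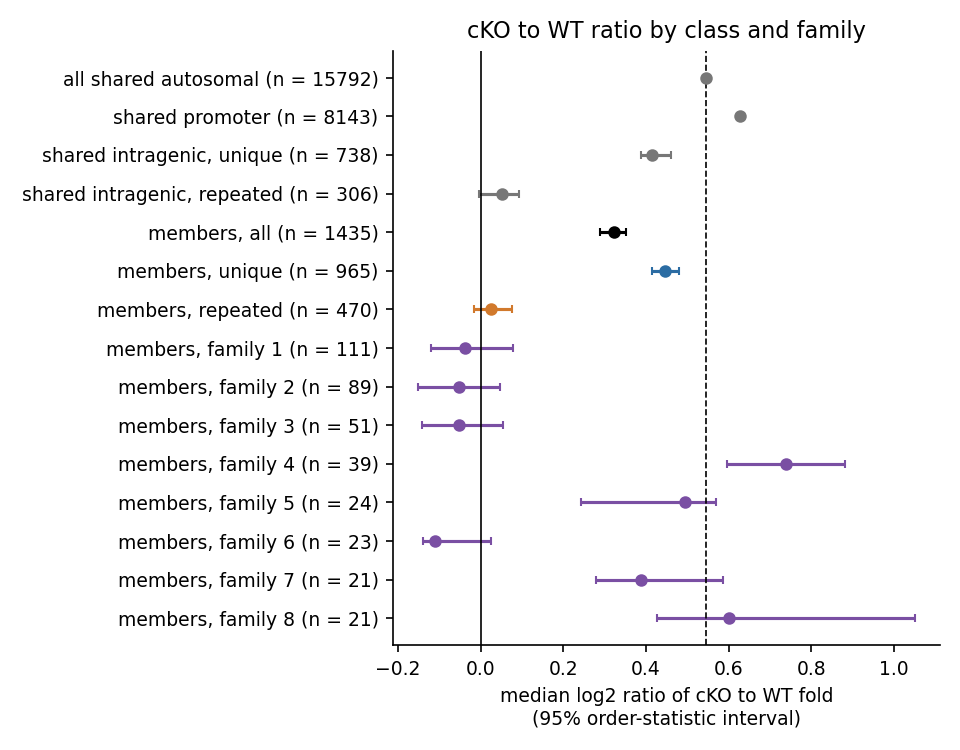
Median log2 ratio of cKO to WT fold enrichment (x axis) with its 95% order-statistic interval for classes of shared peaks and for the 8 sequence families among the members, with a solid line at 0 and a dashed line at the median of all shared autosomal peaks. The intervals of repeated members and of families 1, 2, 3 and 6 hold 0, and families 4, 5 and 8 sit near or above the dashed line.

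The octamer of family 8 was found in the summit windows of 5.23% of members (4.19 to 6.50), 7.70% of gained distal intergenic peaks, 3.07% of shared intragenic peaks, 1.01% of shared promoter peaks and 1.74% of 32851 RefSeq promoters of the same 300 bp length. Copies of the family 8 24-mer lay in 33 members and in 81 gained distal intergenic peaks, and copies of the family 4 24-mer in 40 members and 68 gained peaks. The family 1 24-mer lay in 111 members, 40 gained and 50 shared intragenic peaks. Each 24-mer was chosen for its count in members, so its count there was set by the choice. The classes also differed in size (1435, 2234 and 1044 peaks), and gained peaks were narrower (median of 493 bp), so the 24-mer counts do not compare the classes. These counts describe where the letters occur and were not tested.

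Base composition differed among the kinds of members. Median GC content was 53.7% for members (53.0 to 54.0), 50.3% for gained distal intergenic peaks, 54.0% for shared intragenic and 66% for shared promoter peaks. It was 52.7% at unique and 62.0% at repeated members. Families 1, 2 and 6 were rich in GC and CpG, with medians of 65.3%, 63.0% and 66.7% GC and 19, 18 and 22 CpG in 300 bp, while families 3, 4 and 8 had 44.7%, 45.7% and 44.3% GC. Soft-masked repeats filled at least 50% of the window at 589 members (41.0%, 38.5 to 43.6), at 30.3% of gained distal intergenic and at 29.1% of shared intragenic peaks.

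**Figure D3:**
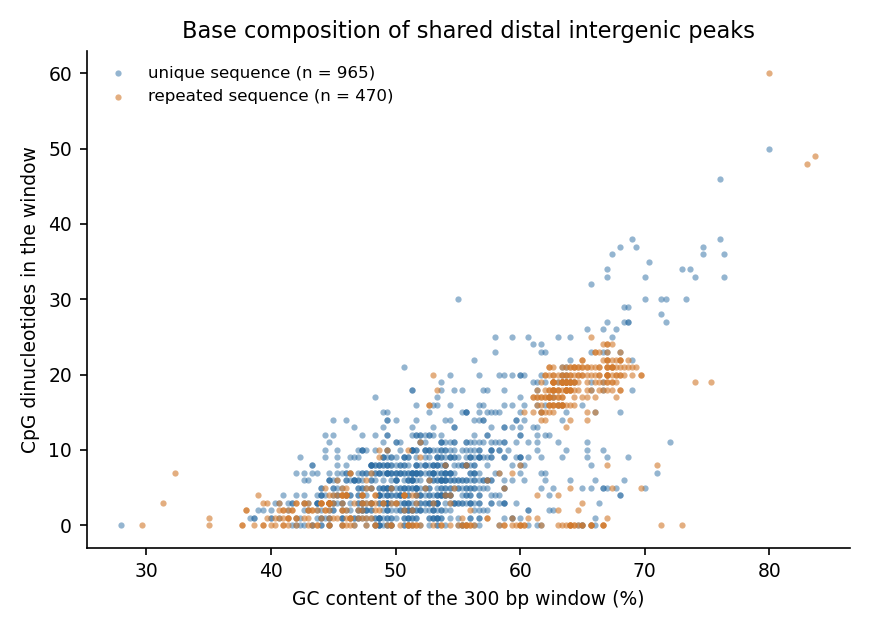
GC content in percent (x axis) and number of CpG dinucleotides (y axis) of the 300 bp summit window of each member, with unique sequence in blue and repeated sequence in orange. Repeated members form a dense group above 60% GC with about 20 CpG, and a separate arm of blue points reaches from 20 to 50 CpG.

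Among unique members, 67 windows (6.94%, 5.50 to 8.72) held 20 or more CpG, the composition of a CpG island, against 74.2% of shared promoter windows. These 67 were stronger than the other 898, with medians of 7.85 against 5.4 in cKO and 5.63 against 4.13 in WT. Windows that repeated themselves were also frequent. In 124 members (8.64%, 7.30 to 10.2) at least 80% of bases matched the window shifted by 5 to 100 bp, as in tandem repeats, compared with 61 gained distal intergenic peaks (2.73%, 2.13 to 3.49) and 180 shared intragenic peaks (17.2%, 15.1 to 19.7). Of the 124, 41 were of unique sequence by 50-mers.

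The 8 unique members of highest cKO fold enrichment differed in sequence. The *Kcnk2* peak shown above was followed by chr10:6514342-6515745, 243462 bp from *Oprm1*, an opioid receptor gene, at 58.9 in cKO and 38.8 in WT. Its window matched itself at 99.3% of bases at a shift of 33 bp. The third, chr15:36470297-36473148, lay 24992 bp from *Ankrd46* and had 45.3 in cKO and 30.2 in WT, and its window held 2 CpG, matched itself at no more than 37% of bases and belonged to no family.
The peaks at chr5:134043198-134044521 near *Castor2* (41.2 in cKO, 24.6 in WT) and chr5:136588983-136590008 near *Cux1*, a homeobox gene (32.9 and 23.4), both belonged to family 5. That family was nearly local, with 21 of its 24 members on chromosome 5 and 3 on chromosome 7, and the *Cux1* window matched itself at 96.0% of bases at a shift of 53 bp.
The other 3 were the CpG-rich peaks near *Chd7*, *Foxk1* and *Ptma*. The *Foxk1* peak (chr5:142366607-142368549, forkhead factor gene, 34 CpG) had 28.3 in cKO and 15.4 in WT, and the *Ptma* peak (chr1:86486024-86488542, 36 CpG) had 27 and 17.3.

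The 5 unique members with the highest cKO to WT ratio had 7.20 to 18.7 in cKO. The first, chr13:73879927-73881539, lay 33102 bp from *Nkd2*, an inhibitor of Wnt signaling, and had 9.16 in cKO and 3.19 in WT (log2 ratio of 1.52). Its summit window (chr13:73880777-73881076, forward strand) is shown because it held the RFX string, in capitals.
Nkd2 peak: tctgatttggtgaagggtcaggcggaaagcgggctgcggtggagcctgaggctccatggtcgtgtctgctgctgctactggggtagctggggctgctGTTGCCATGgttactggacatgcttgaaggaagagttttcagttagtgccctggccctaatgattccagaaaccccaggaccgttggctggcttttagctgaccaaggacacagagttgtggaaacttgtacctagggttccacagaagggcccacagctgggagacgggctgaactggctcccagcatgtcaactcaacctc
It was followed by chr14:76574177-76577334 near *Serp2* (18.7 and 7.13, log2 ratio of 1.39) and chr13:88653857-88655939 near *Edil3* (13.3 and 5.07, 1.39), the latter a copy of family 4. The next were chr2:170611467-170614657 near *4930470P17Rik* (7.20 and 2.81, 1.36) and chr4:143323442-143325788 near *Pdpn* (11.3 and 4.50, 1.33).

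At the other end, 1 unique member stood apart. The peak at chr6:137002650-137003120, 43624 bp from *Pde6h*, a photoreceptor phosphodiesterase gene, had 2.95 in cKO and 8.82 in WT (log2 ratio of -1.58). It was 471 bp wide, with 70.6% unique 50-mers and a self-match of 63.4% at 27 bp. The next lowest were chr5:130157943-130158607 near *Kctd7* (3.11 in cKO and 5.63 in WT, -0.86), chr17:83000224-83000731 near *Pkdcc* (3.76 and 5.63, -0.58), chr2:28820247-28820605 near *Gtf3c4* (2.95 and 4.31, -0.55) and chr18:5478238-5478585 near *Zeb1* (2.95 and 4.31, -0.55). All 5 were narrower than the median member. The *Kctd7* peak covered 349 bp of a WT peak of 2870 bp and the *Gtf3c4* peak 298 bp of a WT peak of 1589 bp, so the WT value at their own position is unknown.
The lowest ratios of repeated sequence, named after their values were seen, were 3 cKO peaks on chromosome 13 between 66720004 and 66723689, nearest to *Uqcrb*. They had 3.11, 4.25 and 4.25 in cKO and lay under 1 WT peak of 34.7 and 12852 bp, so the WT value at their own position is unknown.

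The 3 strongest members of repeated sequence were chr5:28098296-28099515 near *Insig1*, a regulator of cholesterol synthesis (15.9 in cKO and 13.7 in WT), chr9:115577847-115578446 near *Stt3b* (14.9 and 6.75, family 8) and chr3:140771314-140773753 near *Pdha2* (14.2 and 13.5, family 2). *Pdha2* encodes the testis form of a pyruvate dehydrogenase subunit, but its start was 439821 bp away.

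Members were spread over all autosomes, from 37 on chromosome 19 to 136 on chromosome 5, or 0.375 (chromosome 3) to 0.896 (chromosome 5) per Mb. They made up 4.86% of the shared peaks of chromosome 7 and 14.7% of those of chromosome 18. The median distance to the nearest start of any gene was 24838 bp, and to the nearest protein-coding start 50207 bp (45311 to 55962). Repeated members lay farther from coding starts (120564 bp) than unique ones (36196 bp). A distance of at least 100000 bp from every start was found for 100 members. The 3 farthest were all repeat copies: chr11:13615876-13616612, 545835 bp from any start (family 1, 3.11 in cKO and 5.25 in WT), chr15:29284544-29284971, 428646 bp (family 8, 5.07 and 3.38), and chr4:50694095-50694450, 407527 bp (family 8, 7.85 and 5.82).

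Most members stood alone. With gaps under 50 kb joined, 1115 were single, 224 formed pairs and 63 formed groups of 3. The largest group held 9 members at chr12:98374335-98418206, between *Gpr65*, a proton-sensing receptor gene, and *Kcnk10*, a potassium channel gene. All 9 were of unique sequence, and their cKO peaks were 764 to 4373 bp wide. Fold enrichment ran from 2.95 to 6.22 in cKO and from 3.0 to 4.31 in WT, and 1 of the 9 was lower in cKO, beside 9.22% of all shared autosomal peaks. The median log2 ratio of the 9 was 0.36. At a WT fold enrichment of up to 4 it was 0.36 for all shared autosomal peaks and 0.42 for unique members, and from 4 to 6 it was 0.45 and 0.39. The 0.55 of all shared autosomal peaks includes stronger peaks, whose ratio was higher. The strongest, chr12:98413834-98418206, had 6.22 and 4.31, and the 1 lower in cKO, chr12:98374335-98375098, had 2.95 and 3.19.

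**Figure D4:**
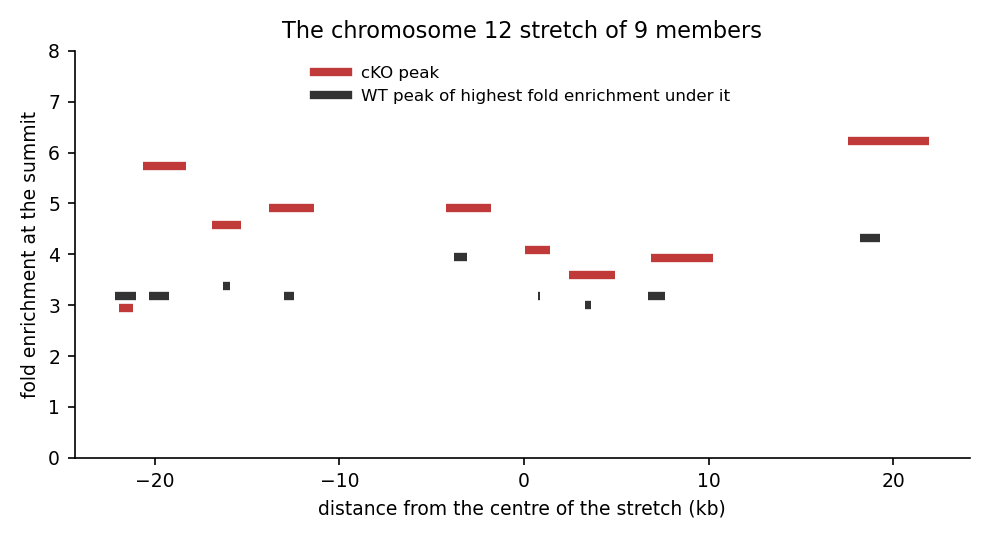
Fold enrichment at the summit (y axis) of the 9 neighbouring members on chromosome 12 against distance from the centre of the stretch in kb (x axis). Red bars span the cKO peaks and black bars the WT peaks beneath them, and in 8 of 9 the red bar is higher, at up to 6.22 against at most 4.31 in WT.

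Strings of factor binding sites, a measure independent of the rule, were then searched in the summit windows on both strands, and each string was counted without regard to overlap with another. The CTCF string CCACNAGNNGGC was found in 16 members (1.11%, 95% Wilson interval, 0.687 to 1.80), 61 gained distal intergenic peaks (2.73%, 2.13 to 3.49), 11 shared intragenic peaks (1.05%) and 0.648% of RefSeq promoters. Members held it less often than gained distal peaks (odds ratio of 0.402, interval 0.231 to 0.699, by a two-sided Fisher's exact test, p = 0.000833, Benjamini-Hochberg adjusted p = 0.00778 over 28 tests). Against shared intragenic peaks the odds ratio was 1.06 (interval 0.489 to 2.29, by Fisher's exact test, adjusted p = 1). All 16 were unique members, and between peaks of unique sequence the odds ratio against gained peaks was 0.504 (interval 0.289 to 0.88, by Fisher's exact test, p = 0.014, adjusted p = 0.0559), no longer past the adjusted threshold. Over whole peaks, which are wider in members, the difference was lost (odds ratio of 0.85, interval 0.587 to 1.23, by Fisher's exact test, p = 0.406). Peaks are the units of these tests, neighbouring peaks are not independent, and the variance between animals is not in them.

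The 5 unique members with a CTCF string and the highest cKO enrichment are shown with the string in capitals, in 40 bases of the forward strand (GRCm38). They lie at chr7:38085019-38085058, 13570 bp from *Ccne1*, the cyclin E1 gene, chr4:152625136-152625175 near *Nphp4*, chr5:129063467-129063506 near *Adgrd1*, chr12:99084240-99084279 near *Ttc8*, and chr11:61104473-61104512 near *Tnfrsf13b*.
Ccne1 peak: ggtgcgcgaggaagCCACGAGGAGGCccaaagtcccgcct
Nphp4 peak: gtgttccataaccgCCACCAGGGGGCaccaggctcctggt
Adgrd1 peak: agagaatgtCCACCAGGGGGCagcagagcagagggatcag
Ttc8 peak: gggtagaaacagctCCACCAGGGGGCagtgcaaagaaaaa
Tnfrsf13b peak: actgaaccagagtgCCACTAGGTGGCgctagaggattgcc
Their fold enrichment was 23.4 in cKO and 15.9 in WT near *Ccne1*, 10.8 and 5.63 near *Nphp4*, and 10.8 and 4.69 near *Adgrd1*. It was 9.0 and 3.94 near *Ttc8* and 7.20 and 5.25 near *Tnfrsf13b*. All 5, chosen for a high cKO value, were higher in cKO, as were all but 9.22% of shared autosomal peaks.

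Of the 13 other strings, 1 differed from gained distal peaks and 1 from shared intragenic peaks. The GC box of SP and KLF factors, GGGCGGGG, was found in 92 members (6.41%, 5.26 to 7.80) and 82 gained distal peaks (3.67%), an odds ratio of 1.80 (95% interval, 1.32 to 2.44, by Fisher's exact test, adjusted p = 0.00486). Shared promoter windows held it at 35.1% and RefSeq promoters at 17.6%. The CCAAT box of NF-Y, AGCCAAT, was found in 136 members (9.48%), 58 shared intragenic peaks (5.56%) and 7.86% of RefSeq promoters, with an odds ratio against intragenic peaks of 1.78 (interval 1.29 to 2.45, by Fisher's exact test, adjusted p = 0.0049). Against gained distal peaks it was 0.999 (interval 0.796 to 1.25, by Fisher's exact test, adjusted p = 1) over all peaks but 1.48 (interval 1.13 to 1.94, adjusted p = 0.0487) between peaks of unique sequence. These 3 were the only tests of the 28 past an adjusted p of 0.05 over all peaks. Between peaks of unique sequence, adjusted over the same 28 comparisons and added after the data were seen, the SP and KLF, NF-Y and NRF1 strings were past it against gained distal peaks, while NF-Y against shared intragenic peaks was not (odds ratio of 1.61, interval 1.13 to 2.29, by Fisher's exact test, adjusted p = 0.0539).

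The strings of germ cell factors did not pass the adjusted threshold in either comparison, over all peaks or between those of unique sequence. The MYB string AACNGNCA was found in 20.8% of members (18.7 to 22.9), 17.6% of gained distal and 19% of shared intragenic peaks, and in 11.8% of RefSeq promoters (members against gained, odds ratio of 1.23, interval 1.04 to 1.45, by Fisher's exact test, adjusted p = 0.0971). The RFX string GTTGCCATG was found in 30 members (2.09%) and 0.773% of RefSeq promoters (odds ratio against gained of 1.57, interval 0.942 to 2.61, by Fisher's exact test, adjusted p = 0.236), and all 30 were of unique sequence. Between peaks of unique sequence its odds ratio against gained peaks was 1.95 (interval 1.17 to 3.26, by Fisher's exact test, adjusted p = 0.0559). The cAMP response element TGACGTCA, the site of CREM and CREB, was found in 19 members (1.32%), 0.94% of gained distal peaks and 1.79% of RefSeq promoters. Against gained peaks its odds ratio was 1.41 (interval 0.758 to 2.64, by Fisher's exact test, adjusted p = 0.636).
No string of the factors of testis somatic cells passed the adjusted threshold. The GATA string AGATAAG was found in 2.16% of members, 3.67% of gained distal peaks and 3.04% of RefSeq promoters (odds ratio against gained of 0.579, interval 0.381 to 0.881, by Fisher's exact test, adjusted p = 0.0744). The SOX string ACAATGG was found in 4.04%, 3.80% and 3.66%, the NR5A string CAAGGTCA in 0.906%, 1.30% and 1.56%, and the DMRT string TACATTGT in 0.279%, 0.85% and 0.67%, respectively.
The remaining strings, TGANTCA of AP-1 (5.30% of members and 7.81% of RefSeq promoters), GCGCNTGCGC of NRF1 (2.44% and 4.60%), CCGGAAGT of ETS factors (1.53% and 3.89%) and the E box CACGTG (6.06% and 7.15%), had adjusted p values from 0.102 to 1 in Fisher's exact tests over all peaks. Between peaks of unique sequence the odds ratio of NRF1 against gained peaks was 2.08 (interval 1.27 to 3.42, by Fisher's exact test, adjusted p = 0.0487). At least 1 of the 14 strings was found in 712 members.

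**Figure D5:**
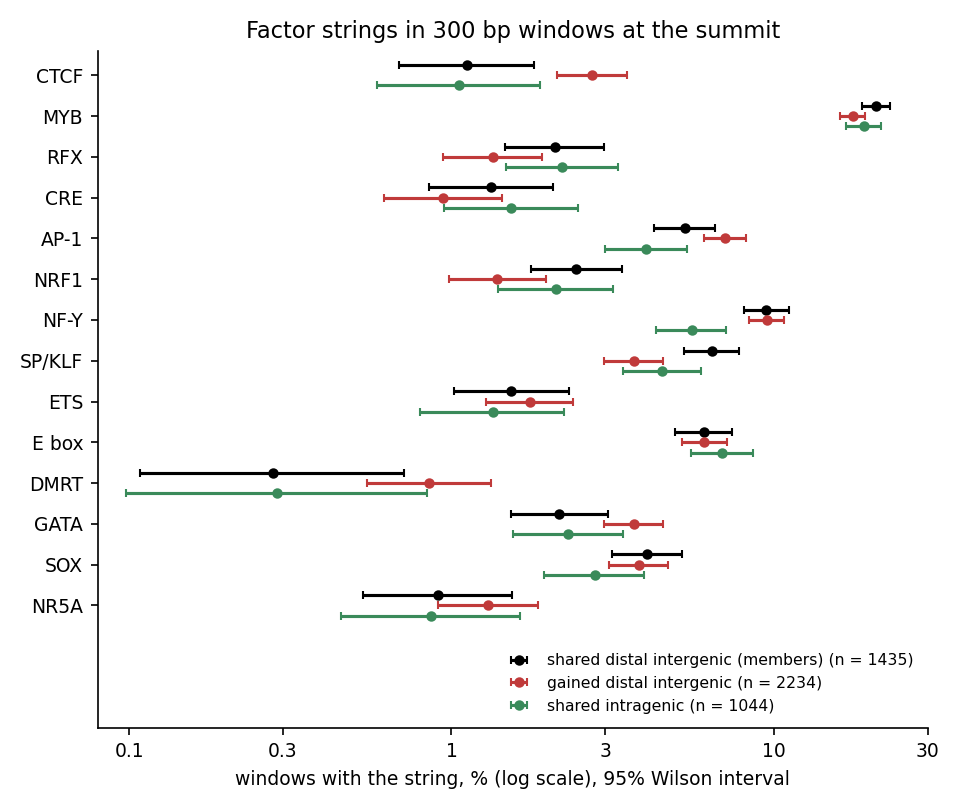
Share of 300 bp summit windows that held each of 14 factor strings, in percent on a log scale (x axis) with 95% Wilson intervals, for members, gained distal intergenic peaks and shared intragenic peaks. CTCF is lower in members (1.11%) than in gained peaks (2.73%), SP/KLF is higher (6.41% against 3.67%), and NF-Y is higher than in intragenic peaks (9.48% against 5.56%).

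RefSeq lists enhancers on the same assembly that were tested in transgenic mouse embryos, and 11 members (0.767%, 0.429 to 1.37) overlapped 1 of the 1010 on autosomes. So did 10 gained distal (0.448%, 0.243 to 0.822), 11 shared intragenic (1.05%, 0.589 to 1.88) and 14 shared promoter peaks (0.172%, 0.102 to 0.288). These shares were not tested. All 11 were of unique sequence. They were not part of the rule for named peaks and are named because of this overlap. The strongest, chr12:85454214-85456033, lay 18766 bp from *Fos* over an element active in embryonic heart and had 15.7 in cKO and 9.76 in WT. The peak chr11:94159230-94162079 near *Tob1*, over an element of forebrain and hindbrain, had 10.5 and 5.44. Near *Wnt10a* (chr1:74816561-74817266, heart) the values were 7.20 and 5.44, and near *Ski* (chr4:155234082-155236226, heart) they were 6.38 and 4.69. The other 7 lay near *Hmga2*, *Irf2bpl*, *Vrk1*, *Tcp11*, *Polr1a*, *Wee1* and *Rpl14*, and 2 of the 11, near *Irf2bpl* (5.24 and 5.25) and *Rpl14* (5.24 and 5.82), were lower in cKO. Near *Tcp11* the only WT peak, and near *Polr1a* the WT peak of highest enrichment, ended before the element began.

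The genes nearest to members were counted in fixed lists. In all, 1135 of 20780 autosomal protein-coding genes (5.46%) were nearest to a member, and 915 of these to 1 member only. *Gpr65*, *Vrk1* and *Zfp516* were nearest to 7 members each. Of 28 pachytene spermatocyte genes 2 were nearest to a member, *Hfm1*, a meiotic helicase gene (4.58 in cKO and 4.13 in WT), and *Tdrd5*, a piRNA pathway gene (4.25 and 3.38), and of 17 spermatid and 16 spermatogonial genes none was. Of 23 genes of testis somatic cells, 6 were nearest to a member, namely *Adgre1*, *Cdh5*, *Fshr*, *Inhba*, *Nr5a1* and *Sox9*. Some of these were distant or repeat copies. A member near *Inhba* was 592984 bp away and of family 2, and a member near *Cdh5* was 299504 bp away. The member near *Fshr* was of family 4 and held no unique 50-mers. The peak near *Nr5a1* (chr2:38688363-38690314, 21849 bp), which encodes the steroidogenic factor of Sertoli and Leydig cells, had 9.16 in cKO and 4.50 in WT, while that near *Sox9* was 625858 bp away.
Of 38 developmental transcription factor genes, 10 were nearest to a member, namely *Bcl11a*, *Bcl11b*, *Emx2*, *Gata3*, *Lhx2*, *Meis2*, *Olig2*, *Pax2*, *Sox2* and *Tbx3*. *Olig2*, a factor of oligodendrocytes, had a member at chr16:91199828-91200453 (8.67 in cKO and 6.19 in WT), and *Pax2*, a factor of kidney development, had 3, the strongest with 6.22 and 4.88. The members near *Tbx3* and *Sox2* were 262417 and 244352 bp away, and that near *Gata3* was of repeated sequence and lower in cKO (2.95 and 4.50). These counts were not tested and were not matched for the space between genes. The nearest gene need not be the one a distal site acts on.

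As a check of the cell type, promoter peaks were counted at marker genes in both lists. A promoter peak was present at 20 of 28 pachytene spermatocyte genes in each list. In cKO these included *Sycp1* and *Mybl1* but none of *Sycp3*, *Hormad1*, *Hormad2*, *Hspa2*, *Ldhc*, *Mlh3*, *Tdrd5* and *Tex12*. Spermatid genes had one at 5 of 18 in WT and 7 in cKO, spermatogonial genes at 2 of 16 and 5, and somatic genes at 5 of 23 in both. The cKO list holds more peaks (30244 against 19309), and the share over all genes was not counted. In cKO the somatic genes with a peak were *Cldn11*, *Clu*, *Nr5a1*, *Star* and *Wt1*, while the Sertoli and Leydig markers *Sox9*, *Amh* and *Cyp11a1* had none there. The part of other cells in the members was not tested.

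The peaks just inside and just outside each limit are given as a description. The widest member (chr11:121843912-121848821) was 4910 bp wide, with 5.89 in cKO and 5.07 in WT, and the narrowest peak left out by width was 5068 bp wide, with 4.58 and 3.94. The member nearest to a start, at 10010 bp (*Gm12903*), had 4.42 and 3.94, and the peak just outside, at 9998 bp from *Pfkfb3*, had 4.75 and 3.94. The least overlap was 1 bp, at chr15:74656434-74656737 near *Arc* (2.78 and 3.0), while the gained peak nearest to a WT peak, at a gap of 27 bp, had 3.11.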

How the data were processed

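The authors trimmed reads, aligned them to mm10 with Bowtie2, removed duplicates with Picard, called peaks in each library with MACS2 against a single genome-wide background, dropped peaks in blacklisted regions and intersected the replicates of a genotype; no mapping-quality filter was stated. Each deposited list holds intervals with a score, the fold enrichment (a linear ratio), −log10 p-values and q-values (only the latter used here), and the summit offset recorded as other. The deposited score was not used. Rows were collapsed by peak name. The WT value is that of the overlapping WT peak of highest enrichment. Genes came from GENCODE M21 and sequence, promoters and enhancers from RefSeq on GRCm38, the build of mm10.

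Python 3.11.15, scipy 1.17.1 and pandas 2.3.3 were used. Shares have Wilson and medians order-statistic 95% intervals, which cover counting error only. Scripts were tested on simulated sequences. Named among unique members on 3 or more rows were the 8 of highest cKO enrichment, the 5 highest and 5 lowest in ratio and the 5 strongest with a CTCF string. Also named were the 3 farthest from a start, the 3 strongest of repeated sequence, the largest group, those at each threshold and those nearest to listed genes. Members and lists were chosen with earlier results of these data known. Each genotype has 1 list, so no per-library value or test between animals was possible.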

Additional observations from a re-analysis of the deposited data

How the results depend on the processing

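No paired analysis was possible because each genotype is 1 list with no per-library values, and for the same reason no replicate could be left out. Starts at least 20 kb away gave 885 members and a −log10 q of at least 10 gave 882, against 965 to 1983 under the other settings. The lower CTCF share against gained distal peaks kept its direction under all 11 alternatives but was no longer past the threshold with starts 20 kb away (odds ratio of 0.529), with the same q limit (0.474) and over whole peaks (0.85). Against intragenic peaks, where the interval held 1 throughout, the odds ratio fell below 1 with starts 20 kb away (0.683), protein-coding and lncRNA genes only (0.846), 50% of the cKO peak covered (0.804) and a midpoint window (0.831). The CTCF share of members was 0.557% in the midpoint window, 3.14% over whole peaks and 2.51% with a looser string. The median log2 ratio was 0.26 with 50% covered, 0.53 with the q limit and 0.45 for unique sequence, and the median GC content was 54.7% with 50% covered, 52.7% for unique sequence and 51.7% over whole peaks.

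Chosen after seeing the data, peaks on 3 or more rows in both lists gave log2 ratios of 0.53 for unique and 0.079 for repeated members, and a limit of 80% unique 50-mers gave 0.10 for repeated members. Members 2 times below the median ratio numbered 6 without division and 21 after division by the members' own median. The NF-Y and SP/KLF odds ratios ran from 1.41 to 1.88 and from 1.49 to 2.36 in 3 alternatives each, with intervals above 1. Alternatives were held to an unadjusted p. Adjusted over 28 comparisons of unique sequence, the CTCF string against gained peaks and the NF-Y string against intragenic peaks did not pass (adjusted p of 0.0559 and 0.0539, Fisher's exact test). The cause of these shifts was not tested.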
